A study of Mus musculus with 12 samples.

Results

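The 8 genes Lpl, Gpihbp1, Cd36, Rbp7, Cd300lg, Mgll, Aqp1 and Aqp7 were followed through every cell class of mouse white fat, starting with endothelial cells (ECs). They were chosen by name, as genes of lipid and glycerol transport, out of 31053 genes in the count files, and all 8 were measured in all 12 libraries. The study profiled single cells of the stromal vascular fraction (SVF), the part of fat that remains after floating adipocytes are removed, to learn what leptin deficiency and a short course of rosiglitazone (Rosi) do to each cell type. Rosi is a thiazolidinedione drug that activates the nuclear receptor PPARγ. The WT-Veh group was lean C57BL/6J mice and the ob/ob-Veh group was obese Lepob/Lepob mice, both given the methylcellulose vehicle. The ob/ob-Rosi group was Lepob/Lepob mice given 30 mg/kg Rosi by oral gavage in the morning and in the evening for 3 days. All mice were males of 12 weeks. Each group had 2 libraries from epididymal fat (eWAT) and 2 from inguinal fat (iWAT), each library held cells from several spots of 1 fat depot, and no label tied an eWAT library to an iWAT library of the same mouse. No lean mice given Rosi were analysed here, so every Rosi value below applies to ob/ob mice.

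Triglyceride travels in blood inside lipoproteins, and fat can take it up only after it has been split at the capillary wall. Lipoprotein lipase (LPL) does the splitting, and GPIHBP1, a protein of the capillary endothelium, carries LPL across the cell and holds it at the vessel's inner face. The fatty acids released there can be taken up through CD36, and glycerol and water pass membranes through aquaporins such as AQP7 and AQP1. Cd36, Lpl and Aqp7 are known PPARγ targets in adipocytes, and capillaries of fat are known for high levels of Gpihbp1, Cd36 and Rbp7.

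The files held 8131 to 18339 barcodes and 20132553 to 92475986 UMIs (unique molecular identifiers, each standing for 1 captured mRNA) per library. After filtering, 6472 to 17500 cells per library remained, with medians of 1132 to 4961 UMIs per cell, and no pair of libraries shared more than 99 cell barcodes. The iWAT WT-Veh 1 library stood apart: it had the lowest median, and 1737 of its cells in vascular clusters could not be named, so results are also given without it where it decides a call. The median mitochondrial share per cell was 9.05% and 8.06% in iWAT ob/ob-Veh, and 2.17% to 5.89% in the other iWAT libraries. Its part in the iWAT changes was not tested. Lep, mutated in ob/ob mice, still makes a transcript there, one known to be raised in their fat, so its level could be set beside the labels. Per 100 UMIs of the adipocyte gene Adipoq, eWAT held 28.0 and 42.5 Lep UMIs under the label WT-Veh, 3.96 and 16.2 under ob/ob-Veh, and 240 and 390 under ob/ob-Rosi. For iWAT the ratios were 20.1 and 31.6, 36.4 and 15.1, and 164 and 141. Some of these ratios are rough, since they rest on few UMIs. In iWAT ob/ob-Veh 1 there were 4 Lep and 11 Adipoq UMIs, and in ob/ob-Veh 2 there were 8 and 53. In eWAT ob/ob-Veh 1 there were 7 and 177. In neither depot did both ob/ob-Veh libraries stand above both of WT-Veh, so groups are named by label, and every direction given depends on those labels being right.

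Endothelial cells were found by clustering without any of the 8 genes, and clusters were called EC-like from the markers Pecam1, Cdh5, Tie1, Egfl7, Emcn, Cldn5, Esam, Ptprb and Eng. The EC-like class held 287 and 359 cells in the eWAT libraries labelled WT-Veh, 210 and 485 in ob/ob-Veh, and 362 and 672 in ob/ob-Rosi. In iWAT these numbers were 336 and 847, 99 and 592, and 1798 and 1381. In iWAT WT-Veh 1 another 1737 vascular cells lay in unnamed or mixed clusters and were left out, and 16.1% of its cells that passed an EC gate were in the class. All 9 defining markers were present in both depots, with a summed level of 7611 to 11057 counts per 1000000 UMIs (CPM) of the EC-like cells, against 60.3 to 387 CPM in NKT-like cells, the T and natural killer lymphocytes. Different clusters held most of the class in different groups: in eWAT, a cluster led by Cfd, Car3 and Scd1 held 62 and 128 cells of ob/ob-Veh 1 and 2, and a cluster led by Ighm, Igkc and Cfd held 104 and 264, with at most 2 cells of any other library in either. In iWAT a cluster led by Cfd, Fn1 and Tbx3 held 70 and 487 cells of ob/ob-Veh 1 and 2, and most cells of WT-Veh 1, WT-Veh 2, ob/ob-Rosi 1 and ob/ob-Rosi 2 lay in clusters of their own. Adipocyte and mural RNA was higher in ob/ob-Veh than in WT-Veh in both depots. Across 9 adipocyte genes, the sum in EC-like cells was 282 and 361 CPM in eWAT WT-Veh, 1736 and 1361 in ob/ob-Veh, and 456 and 613 in ob/ob-Rosi, and in iWAT 360 and 370, 997 and 827, and 527 and 732. One of the 9, Thrsp, was also a leading gene of an iWAT capillary cluster. Without Thrsp the eWAT sums were 31.5 and 60.7, 1512 and 1100, and 39.4 and 22.5 CPM. The iWAT sums without it were 236.8 and 151.6, 613.7 and 550.4, and 94.8 and 163.5 CPM. The 8 mural markers summed to 97.5 to 98.8 CPM in eWAT WT-Veh, 476 to 499 in ob/ob-Veh and 260 to 291 in ob/ob-Rosi, and in iWAT to 118 to 204, 489 to 520 and 260 to 494. The 6 markers of adipocyte progenitor cells (APCs) summed to 251 to 478 CPM in iWAT WT-Veh, 2267 to 2529 in ob/ob-Veh and 899 to 984 in ob/ob-Rosi, while in eWAT they stood at 1711 and 560 in WT-Veh, 534 and 772 in ob/ob-Veh and 837 and 697 in ob/ob-Rosi, with overlap of WT-Veh with both others. Macrophage RNA was present as well. Over all libraries, the 6 macrophage markers summed to 180.5 to 986 CPM in eWAT and 206.5 to 852 in iWAT. The 7 markers of perivascular macrophages summed to 134 to 1586 and 112 to 1114 CPM. What these other cells' RNA adds to each value below was not tested.

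By cell class, 7 of the 8 genes were highest in EC-like cells in both depots, and Lpl was the exception. Median EC-like levels over the 6 libraries were 3682 CPM for Gpihbp1 in eWAT and 3495 in iWAT. For Cd36 they were 6663 and 8316 CPM, and for Mgll 2580 and 2213. Rbp7 stood at 1724 and 1031 CPM, Cd300lg at 1597 and 1533, Aqp1 at 2373 and 1624, and Aqp7 at 489 and 766. These are levels of 3′ tags, so they rank cell classes for 1 gene and not genes against each other. Cd36 had a clear second class: lipid-associated macrophages (LAM-like cells) held medians of 2870 CPM in eWAT and 2812 in iWAT. Perivascular macrophages (PVM-like cells) held 1019 and 855 CPM of Cd36, and preadipocyte-like cells 154 and 264. Lpl was highest in LAM-like cells, with medians of 4904 and 3775 CPM, ahead of preadipocyte-like cells at 1835 and 2607 and EC-like cells at 1499 and 1573. In eWAT, proliferating cells (3293 CPM over 4 libraries) and other macrophage-like cells (1760 CPM) also lay above the EC-like median for Lpl. Of 160 pairs of neighbouring classes in these orders, 0 passed adjustment in an exact two-sided paired sign-flip permutation test, and 15 had an unadjusted p under 0.05. In this test the smallest p was 0.0312, the smallest that 6 libraries allow, and the smallest adjusted p was 0.333. Too few pairs held all 6 libraries for any pair to pass adjustment, so the 0 does not show that neighbouring classes were alike. The first class was above the second in every library that held both for 16 of 16 gene and depot pairs, and in 7 of these pairs all 6 libraries held both.

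**Figure D1:**
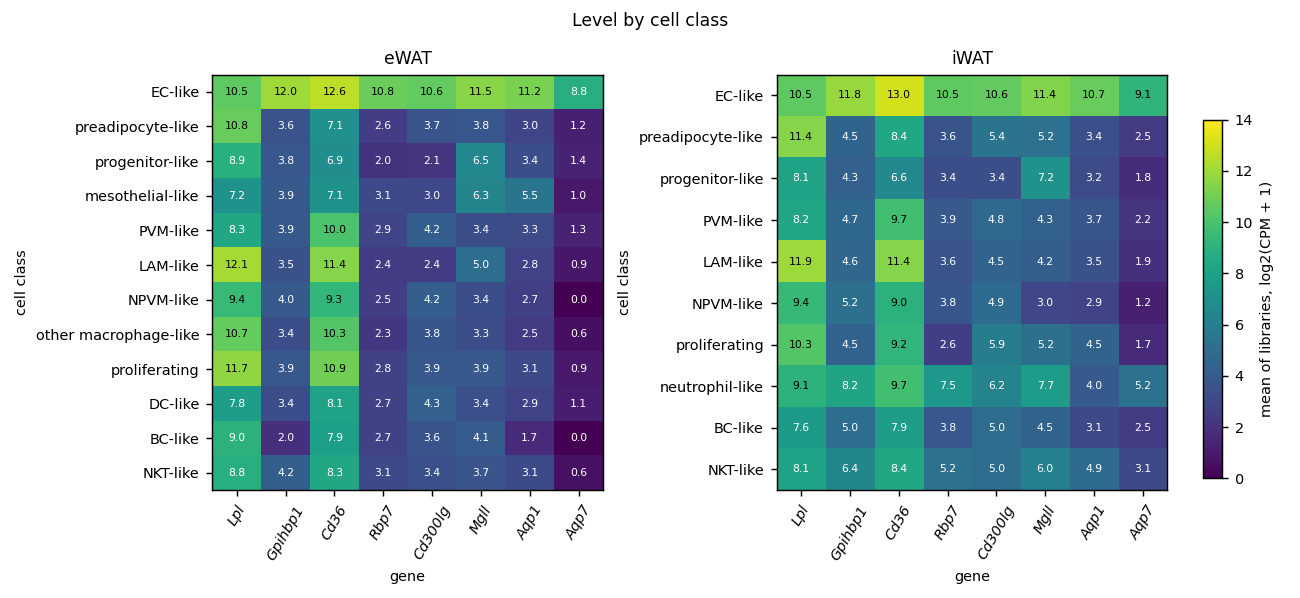
Level of each of the 8 genes by cell class in eWAT and iWAT, as a heat map of log2(CPM + 1) averaged over libraries, for classes with at least 4 libraries. EC-like cells lead for every gene but Lpl, whose highest class is LAM-like with medians of 4904 CPM in eWAT and 3775 CPM in iWAT.

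Droplets also carry free RNA, so each level was set beside that of NKT-like cells, which should lack these transcripts. For Lpl the NKT-like level was 12.6% to 88.0% of the EC-like level in eWAT libraries and 10.2% to 43.3% in iWAT libraries, so endothelial Lpl is the least certain of the 8 values. For Cd36 the NKT-like level was 2.21% to 9.36% and 2.68% to 5.01% of the EC-like level. For the other 6 genes it never passed 5.25%. Cd36 had at least 1 UMI in 91.9% to 99.8% of EC-like cells and in 19.1% to 55.6% of NKT-like cells, whose median depths were 1339 to 3783 and 856 to 2388 UMIs. With every cell thinned to 700 UMIs the Cd36 shares were 81.0% to 98.8% and 7.42% to 36.6%. Gpihbp1 had a UMI in 73.7% to 99.3% of EC-like cells and 1.32% to 22.6% of NKT-like cells, and Aqp7, the least detected, in 36.1% to 78.5% and 0% to 2.25%. EC-like cells held 52.9% to 67.5% of all Gpihbp1 UMIs in eWAT libraries and 40.2% to 85.5% in iWAT libraries. They held far less of Lpl, 0.424% to 12.1% and 3.28% to 17.9%, whereas preadipocyte-like cells held 14.9% to 55.1% of it in eWAT libraries and LAM-like cells 1.18% to 42.5%.

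Within each depot 3 comparisons were made on summed EC-like counts: ob/ob-Veh against WT-Veh (the ob/ob comparison), ob/ob-Rosi against ob/ob-Veh (the Rosi comparison) and ob/ob-Rosi against WT-Veh. The ob/ob and Rosi comparisons share the ob/ob-Veh libraries, so their values are not independent of each other. With 2 libraries a group, an exact permutation test of 1 gene could not go below 0.33, so the test used was edgeR's quasi-likelihood fit over all genes, and a gene was taken as called where its adjusted p did not exceed 0.05 and it differed by 1.1-fold or more. In each of the 6 comparisons 1 of the 8 genes was called: Rbp7 in both ob/ob comparisons and both comparisons of ob/ob-Rosi with WT-Veh, and Aqp7 in both Rosi comparisons. Over all genes tested, 1.42% were called in the eWAT ob/ob comparison, 2.32% in the eWAT Rosi comparison and 0.125% in eWAT ob/ob-Rosi against WT-Veh. In iWAT the shares were 4.96%, 4.44% and 1.57%. The 2 libraries of one group lay wholly to 1 side of the other group for 5, 4 and 5 of the 8 genes in eWAT and for 5, 4 and 5 in iWAT, which with 2 against 2 is a weak criterion. The share of all genes that lay apart in this way was not counted, so these numbers are no result about the 8 genes. The median log2 change of the 8 genes was -0.43, 0.11 and -0.48 in eWAT and -0.80, 0.03 and -0.77 in iWAT, beside medians between -0.06 and 0.02 over all genes tested. Scaling by library size alone, without TMM factors, shifted the median of the 8 genes by 0.11 and -0.10 in the eWAT ob/ob and Rosi comparisons and by 0.23 and -0.22 in the iWAT ones.

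**Figure D2:**
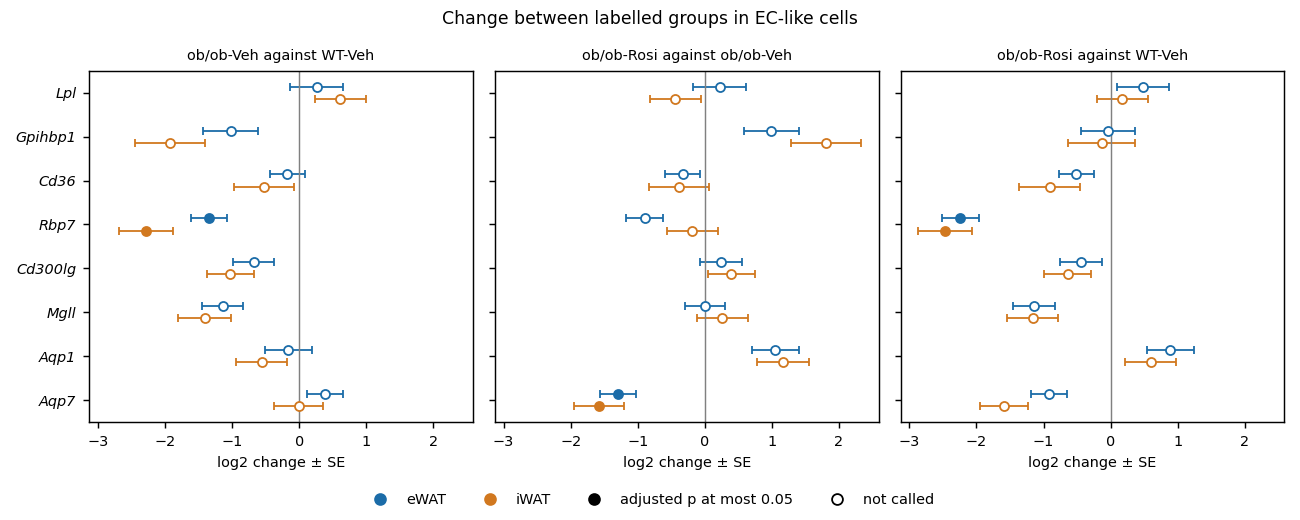
Log2 change with its standard error for the 8 genes in EC-like cells in the 3 comparisons of each depot, with filled points for called genes (adjusted p of at most 0.05). Rbp7 is called in the ob/ob comparison of both depots, at -1.34 in eWAT and -2.28 in iWAT, and Aqp7 in the Rosi comparison of both, at -1.30 and -1.58.

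Lpl, which encodes the lipase itself, was not called in any endothelial comparison. In EC-like cells of eWAT the level was 805 and 1681 CPM in libraries labelled WT-Veh, 1318 and 1905 in ob/ob-Veh, and 1240 and 2251 in ob/ob-Rosi. The 3 groups overlapped. The log2 change was 0.26 ± 0.39 (SE, n = 2 a group, adjusted p = 0.76, edgeR) in the ob/ob comparison and 0.22 ± 0.39 (adjusted p = 0.83, edgeR) in the Rosi comparison. The iWAT levels of Lpl were 1011 and 1376 CPM in WT-Veh, 1923 and 2336 in ob/ob-Veh, and 932 and 1770 in ob/ob-Rosi. Here both ob/ob-Veh libraries lay above all 4 others, with a change of 0.61 ± 0.38 (adjusted p = 0.38, edgeR) against WT-Veh and -0.44 ± 0.38 (adjusted p = 0.53, edgeR) under Rosi. Replicate 1 lay below replicate 2 in every group of both depots. In eWAT capillary EC-like cells Lpl was 857 and 1725 CPM in WT-Veh, below both ob/ob-Veh libraries (1838 and 2210). The ob/ob-Rosi values there, 1261 and 2269 CPM, overlapped both. In eWAT NKT-like cells Lpl was 709 and 552 CPM in WT-Veh, 166 and 275 in ob/ob-Veh, and 822 and 575 in ob/ob-Rosi. The part of free RNA in the EC-like Lpl changes was not tested.

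Gpihbp1, the endothelial anchor of LPL, was lower in both libraries labelled ob/ob-Veh than in both WT-Veh libraries of the same depot, and this difference did not pass the test, which had no replicate block. Replicate 1 lay below replicate 2 in each of the 6 groups. With the replicate number as a block, which no label ties to mice, the ob/ob and Rosi changes of both depots were called, as given further below. In eWAT Gpihbp1 stood at 3837 and 6746 CPM in WT-Veh, 2100 and 3528 in ob/ob-Veh, and 3197 and 7127 in ob/ob-Rosi. The ob/ob comparison gave -1.02 ± 0.41 (adjusted p = 0.21, edgeR) and the Rosi comparison 0.99 ± 0.41 (adjusted p = 0.26, edgeR), where ob/ob-Rosi 1 overlapped ob/ob-Veh. In iWAT its levels were 3246 and 8345 CPM in WT-Veh, 1427 and 2148 in ob/ob-Veh, and 3744 and 7029 in ob/ob-Rosi, so that both ob/ob-Veh libraries lay below all 4 others. The changes were -1.93 ± 0.52 (adjusted p = 0.053, edgeR) for ob/ob and 1.81 ± 0.52 (adjusted p = 0.069, edgeR) for Rosi, and ob/ob-Rosi against WT-Veh gave -0.13 ± 0.50 (adjusted p = 1, edgeR). The call turned on single libraries. The iWAT ob/ob change was called without WT-Veh 1 (-2.59, adjusted p = 0.00025, edgeR), without ob/ob-Rosi 1 (-1.93, adjusted p = 0.023) or without ob/ob-Rosi 2 (-1.93, adjusted p = 0.022). The iWAT Rosi change was called without WT-Veh 1 (1.91, adjusted p = 0.0021, edgeR), WT-Veh 2 (1.81, adjusted p = 0.0032) or ob/ob-Rosi 1 (2.19, adjusted p = 0.033).

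Cd36, the fatty acid translocase and scavenger receptor, showed no called change in ECs. Its eWAT level was 7026 and 7247 CPM in libraries labelled WT-Veh, 6299 and 7279 in ob/ob-Veh, and 6256 and 3938 in ob/ob-Rosi. Both ob/ob-Rosi libraries lay below the other 4, ob/ob-Rosi 1 by little, and WT-Veh and ob/ob-Veh overlapped. The ob/ob change was -0.18 ± 0.26 (adjusted p = 0.75, edgeR) and the Rosi change -0.33 ± 0.26 (adjusted p = 0.58, edgeR). In iWAT the values were 13904 and 8765 CPM in WT-Veh, 7838 and 10444 in ob/ob-Veh, and 7867 and 4134 in ob/ob-Rosi. The groups overlapped except that both ob/ob-Rosi libraries lay below both WT-Veh libraries, where the change was -0.91 ± 0.45 (adjusted p = 0.59, edgeR). In eWAT capillary EC-like cells alone, Cd36 was 8033 and 7244 CPM in WT-Veh and higher in both ob/ob-Veh libraries (8576 and 8385). It was 6423 and 3968 CPM there in ob/ob-Rosi.

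**Figure D3:**
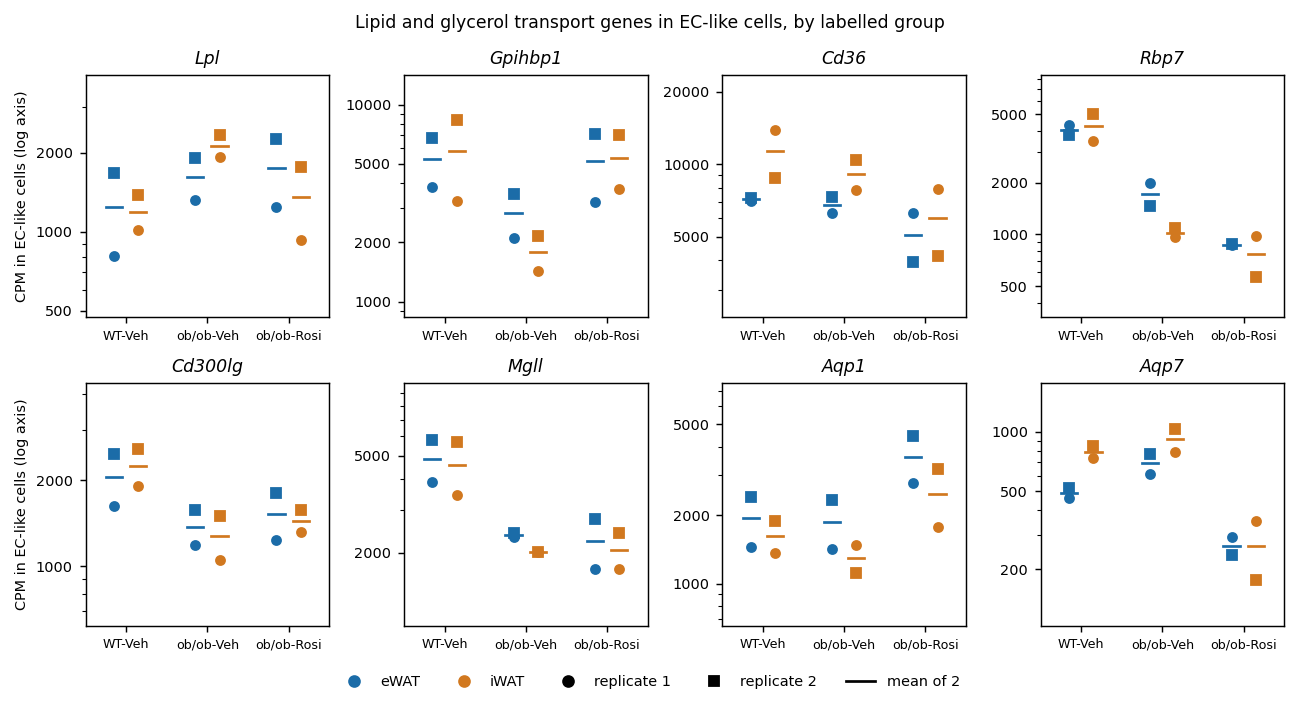
Level of each of the 8 genes (CPM on a log scale) in EC-like cells of the 12 libraries, by depot and labelled group, with a circle for replicate 1, a square for replicate 2 and a bar at their mean. Rbp7 stands at 4308 and 3798 CPM in eWAT WT-Veh, 1977 and 1470 in ob/ob-Veh and 864 and 873 in ob/ob-Rosi.

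Rbp7, a cellular retinol-binding protein of fat capillaries, fell in the ob/ob comparison of both depots. In eWAT EC-like cells it stood at 4308 and 3798 CPM in libraries labelled WT-Veh, 1977 and 1470 in ob/ob-Veh, and 864 and 873 in ob/ob-Rosi, and the 3 groups did not overlap. It fell 2.53-fold in the ob/ob comparison (-1.34 ± 0.27, adjusted p = 0.036, edgeR). Under Rosi the change was -0.90 ± 0.27 (adjusted p = 0.12, edgeR), which did not pass. The libraries labelled ob/ob-Rosi were 4.73-fold lower than those labelled WT-Veh (-2.24 ± 0.28, adjusted p = 0.019, edgeR). The iWAT levels were 3494 and 5007 CPM in WT-Veh, 966 and 1083 in ob/ob-Veh, and 980 and 562 in ob/ob-Rosi. Both ob/ob groups lay below WT-Veh, and they overlapped each other. Rbp7 fell 4.86-fold in the iWAT ob/ob comparison (-2.28 ± 0.40, adjusted p = 0.0082, edgeR) and was 5.55-fold lower in ob/ob-Rosi than in WT-Veh (-2.47 ± 0.40, adjusted p = 0.011, edgeR), while the Rosi comparison gave -0.19 ± 0.38 (adjusted p = 0.81, edgeR).

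The called Rbp7 changes kept their direction under every alternative tried, and the calls turned on single libraries. The eWAT ob/ob call was lost without WT-Veh 1 (-1.24, adjusted p = 0.11, edgeR), WT-Veh 2 (-1.43, 0.11), ob/ob-Veh 1 (-1.60, 0.11) or ob/ob-Veh 2 (-1.13, 0.21), which leave a group with 1 library. It was also lost in capillary EC-like cells alone (-1.16, adjusted p = 0.058, edgeR) and without lymphatic EC-like cells (-1.1, adjusted p = 0.066), where the eWAT Rosi change became a call (-1.31, adjusted p = 0.035, and -1.28, adjusted p = 0.040). The iWAT ob/ob call was lost without ob/ob-Veh 1 (-2.20, adjusted p = 0.12, edgeR) or ob/ob-Veh 2 (-2.42, adjusted p = 0.11). For ob/ob-Rosi against WT-Veh the eWAT call was lost without WT-Veh 1 (-2.14, adjusted p = 0.093, edgeR), ob/ob-Rosi 1 (-2.22, 0.13) or ob/ob-Rosi 2 (-2.28, 0.12), and the iWAT call without ob/ob-Rosi 2 (-2.12, adjusted p = 0.079). Cells gated singly on EC markers, with no clustering, gave iWAT changes of -1.89 (adjusted p = 0.098, edgeR) and -2.21 (adjusted p = 0.086) for ob/ob-Veh and for ob/ob-Rosi, each against WT-Veh. Both iWAT calls were also lost over all vascular clusters, including the cells left out of the class.

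Rbp7 and Aqp7 carried all the called endothelial changes among the 8 genes, so their promoter windows are shown. Each window runs from 250 bases before to 50 bases after a start in the RefSeq annotation of GRCm38.p6, on the minus strand, at chr4:149454919-149455218 for Rbp7 and chr4:41047913-41048212 for Aqp7. Capitals mark AGGTCA, the half-site that nuclear receptors such as PPARγ recognise, read on either strand (TGACCT is its reverse).
Rbp7: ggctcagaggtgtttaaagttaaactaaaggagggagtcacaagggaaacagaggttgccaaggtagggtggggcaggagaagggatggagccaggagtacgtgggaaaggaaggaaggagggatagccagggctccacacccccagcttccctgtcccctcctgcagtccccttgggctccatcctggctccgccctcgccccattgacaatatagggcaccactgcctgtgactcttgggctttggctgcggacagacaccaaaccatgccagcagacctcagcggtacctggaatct
Aqp7: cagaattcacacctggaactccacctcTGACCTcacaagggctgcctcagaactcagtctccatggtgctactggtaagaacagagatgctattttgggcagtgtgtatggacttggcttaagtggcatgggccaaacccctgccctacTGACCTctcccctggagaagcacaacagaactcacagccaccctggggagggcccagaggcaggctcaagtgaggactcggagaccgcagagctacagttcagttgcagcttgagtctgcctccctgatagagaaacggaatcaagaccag
The Rbp7 window held no copy of these letters and this Aqp7 window held 2. A second Aqp7 window, at chr4:41048087-41048386 overlapping the first, held 1 copy, in the stretch that both share, and the Cd36 window held 1. In all, windows were found for 5 of the genes (Aqp7, Rbp7, Cd36, Aqp1 and Mgll), and 2 of these genes, in 3 of 7 windows, held the half-site, against 16.3% of 32851 promoter windows of the same length. The direct repeat AGGTCANAGGTCA, 2 half-sites with 1 base between them, stood in 0.0396% of all windows and in none of the 7. A match of letters is a description of the window and says nothing of binding.

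Cd300lg, a receptor-like glycoprotein of capillary endothelium, also known as nepmucin, was lower in both libraries labelled ob/ob-Veh than in both labelled WT-Veh in each depot, short of the test, which had no replicate block. In eWAT it stood at 1623 and 2468 CPM in WT-Veh, 1183 and 1570 in ob/ob-Veh, and 1232 and 1804 in ob/ob-Rosi. The ob/ob change was -0.68 ± 0.31 (adjusted p = 0.26, edgeR) and the Rosi change 0.24 ± 0.31 (adjusted p = 0.75, edgeR). The iWAT levels of Cd300lg were 1906 and 2562 CPM in WT-Veh, 1055 and 1497 in ob/ob-Veh, and 1320 and 1568 in ob/ob-Rosi. The ob/ob-Rosi libraries overlapped ob/ob-Veh and lay below WT-Veh. Replicate 1 lay below replicate 2 in every group of both depots, and counts of genes called with the replicate number as a block are given further below. The iWAT ob/ob change of -1.03 ± 0.35 (adjusted p = 0.11, edgeR) was called without WT-Veh 1 (-1.37, adjusted p = 0.024), and the Rosi change was 0.39 ± 0.35 (adjusted p = 0.54, edgeR).

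Mgll encodes monoacylglycerol lipase, which releases the last fatty acid from glycerol. Its EC-like level in eWAT was 3911 and 5809 CPM in libraries labelled WT-Veh, 2332 and 2420 in ob/ob-Veh, and 1714 and 2740 in ob/ob-Rosi. Both WT-Veh libraries were above all 4 ob/ob libraries, and the latter groups overlapped. The ob/ob change was -1.14 ± 0.31 (adjusted p = 0.094, edgeR), which was called without ob/ob-Rosi 1 (-1.15, adjusted p = 0.045), and the Rosi change was 0.00 ± 0.30 (adjusted p = 1, edgeR). The iWAT levels followed the same order, with 3460 and 5656 CPM in WT-Veh, 2021 and 2010 in ob/ob-Veh, and 1721 and 2405 in ob/ob-Rosi. The iWAT ob/ob change of -1.41 ± 0.39 (adjusted p = 0.056, edgeR) was called without WT-Veh 1 (-1.86, adjusted p = 0.0033) or ob/ob-Rosi 2 (-1.41, adjusted p = 0.048). Against WT-Veh, the libraries labelled ob/ob-Rosi differed by -1.14 ± 0.31 in eWAT (adjusted p = 0.25, edgeR) and -1.16 ± 0.38 in iWAT (adjusted p = 0.23, edgeR).

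Aqp1, the water channel of continuous capillaries, was higher in both eWAT libraries labelled ob/ob-Rosi than in the other 4, short of the test, which had no replicate block. Its eWAT level was 1455 and 2411 CPM in WT-Veh, 1412 and 2335 in ob/ob-Veh, and 2754 and 4461 in ob/ob-Rosi, with replicate 1 below replicate 2 in each group. The Rosi change was 1.05 ± 0.35 (adjusted p = 0.17, edgeR) and the ob/ob change -0.16 ± 0.35 (adjusted p = 0.85, edgeR), so neither passed. In iWAT it was 1363 and 1876 CPM in WT-Veh, 1482 and 1111 in ob/ob-Veh, and 1767 and 3183 in ob/ob-Rosi, where ob/ob-Rosi 1 overlapped WT-Veh. The iWAT Rosi change of 1.16 ± 0.39 (adjusted p = 0.10, edgeR) was called without WT-Veh 1 (1.28, adjusted p = 0.020) or WT-Veh 2 (1.16, adjusted p = 0.035), libraries that are not in the contrast but help set the spread.

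Aqp7, the glycerol channel, fell under Rosi in both depots. In eWAT EC-like cells it stood at 460 and 518 CPM in libraries labelled WT-Veh, 608 and 774 in ob/ob-Veh, and 292 and 236 in ob/ob-Rosi. The 3 groups did not overlap, with ob/ob-Veh highest and ob/ob-Rosi lowest. Aqp7 fell 2.47-fold in the Rosi comparison (-1.30 ± 0.27, adjusted p = 0.033, edgeR), while its ob/ob change of 0.39 ± 0.27 did not pass (adjusted p = 0.46, edgeR). In iWAT it stood at 739 and 847 CPM in WT-Veh, 794 and 1038 in ob/ob-Veh, and 351 and 176 in ob/ob-Rosi. Both Rosi libraries were below all 4 others, and the other groups overlapped. Aqp7 fell 2.99-fold under Rosi (-1.58 ± 0.37, adjusted p = 0.034, edgeR), and the ob/ob change was -0.01 ± 0.36 (adjusted p = 0.99, edgeR). Against WT-Veh, ob/ob-Rosi differed by -0.92 ± 0.27 in eWAT (adjusted p = 0.32, edgeR) and -1.59 ± 0.36 in iWAT (adjusted p = 0.053, edgeR).

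The Aqp7 calls rested on few libraries, and the iWAT Rosi call was also lost over all vascular clusters, including the cells left out of the class. In eWAT the Rosi call was lost without ob/ob-Veh 1 (-1.44, adjusted p = 0.15, edgeR), ob/ob-Veh 2 (-1.16, 0.20), ob/ob-Rosi 1 (-1.44, 0.051) or ob/ob-Rosi 2 (-1.19, 0.27). In iWAT it was lost without ob/ob-Veh 1 (-1.75, adjusted p = 0.21, edgeR), ob/ob-Veh 2 (-1.31, 0.23) or ob/ob-Rosi 2 (-1.17, 0.28), and in cells gated singly (-1.63, adjusted p = 0.15). The iWAT difference between ob/ob-Rosi and WT-Veh became a call without WT-Veh 1 (-1.72, adjusted p = 0.0043, edgeR), WT-Veh 2 (-1.45, 0.030) or ob/ob-Rosi 1 (-2.17, 0.035). Among the adipocyte genes that could carry free RNA into these cells, 5 of 7 tested rose in the eWAT ob/ob comparison (median log2 change 3.23) and 6 of 7 fell under Rosi (median -4.02), and in iWAT 2 of 8 rose and 3 of 8 fell. Adipocytes are known to express Aqp7, Lpl, Mgll and Cd36, so these shifts stand beside the changes of those genes, and their part in them was not tested. NKT-like cells of the same libraries held at most 5.27 CPM of Aqp7 in eWAT and 20.7 in iWAT. They also held little of the adipocyte genes, with sums of 23.3 and 27.1 CPM in eWAT ob/ob-Veh against 1736 and 1361 in EC-like cells. Their Aqp7 level therefore sets no limit on the Aqp7 that adipocyte RNA may add to EC-like cells.

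The depots were compared in 1 fit over all 12 EC-like sums. None of the 8 genes passed the test for a difference between depots in its ob/ob change, its Rosi change or its level by edgeR (0 of 8 called each time), by DESeq2 (0 of 8 each time) or at an unadjusted p under 0.05 (0 of 8 each time). Over all genes 0.132%, 0.00946% and 0.416% were called in these 3 comparisons, and 543, 590 and 1049 of 10575 genes had an unadjusted p under 0.05. The SE ranged from 0.45 to 0.73 for the 8 differences in the ob/ob change and for the 8 in the Rosi change, so the absence of calls does not show that the depots were alike. The ob/ob change of Rbp7 was 0.94 ± 0.45 lower in iWAT than in eWAT (-0.94, adjusted p = 1, edgeR), and that of Gpihbp1 differed by -0.90 ± 0.73 (adjusted p = 1, edgeR). The Aqp7 Rosi change differed by -0.29 ± 0.45 (adjusted p = 1, edgeR). In level, Aqp1 was -0.48 ± 0.23 (adjusted p = 0.51, edgeR) and Cd36 0.41 ± 0.21 (adjusted p = 0.55, edgeR) in iWAT relative to eWAT.

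Whether the endothelial changes differed from those of other cells was tested against preadipocyte-like and PVM-like cells of the same libraries. In eWAT most preadipocyte-like cells of ob/ob-Veh lay in a cluster led by Sult1e1, Penk and Inmt, and most PVM-like cells of ob/ob-Veh in a cluster led by Cd209f, Cd163 and Cd209d, while the other groups filled other clusters of both classes. In iWAT the groups shared the preadipocyte-like clusters, and most PVM-like cells of ob/ob-Veh lay in a cluster of their own. Against preadipocyte-like cells, 2 of the 8 genes differed in the eWAT ob/ob change and 2 in the eWAT Rosi change, beside 3.4% and 4.35% of all genes. In iWAT 3 genes differed in the ob/ob change and 1 in the Rosi change, beside 2.97% and 2.16%. Cd36 and Cd300lg differed in the ob/ob change in both depots. The preadipocyte-like level of Cd36 in eWAT was 305 and 220 CPM in libraries labelled WT-Veh, 56.4 and 67.7 in ob/ob-Veh, and 180 and 129 in ob/ob-Rosi, while the endothelial change was not called. The EC-like ob/ob change was 1.92 ± 0.30 above the preadipocyte-like one (adjusted p = 0.00062, edgeR), and the Rosi change 1.65 ± 0.29 below it (-1.65, adjusted p = 0.0016). These eWAT preadipocyte-like levels lay under those of NKT-like cells (161 to 596 CPM), and the part of free RNA in them was not tested. In iWAT, Cd36 in preadipocyte-like cells was 1808 and 716 CPM in WT-Veh, 154 and 254 in ob/ob-Veh, and 275 and 109 in ob/ob-Rosi, and here the WT-Veh values were above NKT-like cells. The iWAT difference in the ob/ob change was 1.91 ± 0.46 (adjusted p = 0.026, edgeR). It was lost without WT-Veh 1 (1.55, adjusted p = 0.17, edgeR), WT-Veh 2 (2.26, 0.058), ob/ob-Veh 1 (1.83, 0.22) or ob/ob-Veh 2 (1.99, 0.24), and the eWAT Rosi difference without ob/ob-Rosi 2 (-1.59, 0.057).

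Cd300lg gave the largest such difference of the 8 genes, in iWAT. In iWAT preadipocyte-like cells it was present at 118 and 185 CPM in libraries labelled WT-Veh, at 3.502 and 10.9 in ob/ob-Veh, and at 47.7 and 89.0 in ob/ob-Rosi. It was above the NKT-like level in both WT-Veh and both ob/ob-Rosi libraries, and the groups did not overlap. In NKT-like cells Cd300lg stood at 48.7 to 83.3 CPM in WT-Veh, 5.94 to 23.0 in ob/ob-Veh and 38.0 to 39.4 in ob/ob-Rosi, the same order. The part of free RNA in the preadipocyte-like values was not tested. The EC-like ob/ob change exceeded the preadipocyte-like one by 3.28 ± 0.43 (adjusted p = 0.00024, edgeR), and the EC-like Rosi change was 2.78 ± 0.43 below it (-2.78, adjusted p = 0.0016). In eWAT the ob/ob difference was 1.57 ± 0.39 (adjusted p = 0.029, edgeR). The iWAT ob/ob call was lost without ob/ob-Veh 1 (2.96, adjusted p = 0.059, edgeR) or ob/ob-Veh 2 (3.92, 0.068), the iWAT Rosi call without ob/ob-Veh 1 (-2.45, 0.12) or ob/ob-Veh 2 (-3.42, 0.13), and the eWAT call without WT-Veh 2 (0.88, 0.41) or ob/ob-Veh 1 (1.18, 0.24). Rbp7 differed in the eWAT Rosi change (-1.79 ± 0.40, adjusted p = 0.012, edgeR), lost without ob/ob-Veh 1 (-1.20, 0.12) or ob/ob-Rosi 1 (-1.52, 0.12), and Aqp7 in the iWAT ob/ob change (3.00 ± 0.50, adjusted p = 0.0024, edgeR), lost without ob/ob-Veh 1 (2.65, 0.12) or ob/ob-Veh 2 (3.95, 0.16). The preadipocyte-like level of Rbp7, at most 13.5 CPM, was below that of NKT-like cells in each eWAT library. That of Aqp7, at most 20.2 CPM, was below it in 4 of 6 iWAT libraries, the others being WT-Veh 1 (16.5 against 15.7 CPM) and ob/ob-Veh 1 (0.876 against 0 CPM, where 3 UMIs would be 17.8 CPM). Other differences from preadipocyte-like cells were called without 1 library. In eWAT these were the ob/ob differences of Gpihbp1 (1.49, adjusted p = 0.017, edgeR) and Rbp7 (1.86, 0.0072) without ob/ob-Veh 2 and of Lpl without WT-Veh 2 (1.75, 0.022). The eWAT Rosi differences of Cd300lg and Gpihbp1 were called without WT-Veh 1 (-1.17, adjusted p = 0.014, and -1.17, 0.031, edgeR), WT-Veh 2 (-1.17, 0.021, and -1.17, 0.040) or ob/ob-Veh 2 (-1.64, 0.043, and -1.97, 0.0013). The iWAT Rosi differences of Aqp1 (-2.21, adjusted p = 0.022, edgeR), Aqp7 (-2.21, 0.034) and Gpihbp1 (-2.30, 0.038) were called without ob/ob-Rosi 2.

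Against PVM-like cells edgeR called 0 of the 8 genes in each of 4 comparisons, beside 1.6% (ob/ob) and 1.69% (Rosi) of all genes in eWAT and 2.2% and 1.27% in iWAT. At an unadjusted p under 0.05 there were 3 and 2 of the 8 genes in eWAT, beside 1323 and 1344 of 11600 genes. In iWAT there were 1 and 3 of the 8, beside 1716 and 1679 of 12699 genes. DESeq2 called 0 and 0 of the 8 in eWAT, and 0 and 2 in iWAT. Without 1 library some of these became calls. In the ob/ob comparison they were eWAT Cd36 without ob/ob-Veh 2 (-1.18, adjusted p = 0.031, edgeR), eWAT Lpl without WT-Veh 2 (1.99, 0.0034), iWAT Gpihbp1 (1.96, 0.049) and Lpl (1.53, 0.031) without WT-Veh 2, and iWAT Mgll without WT-Veh 1 (-1.30, 0.035). In the iWAT Rosi comparison Aqp7 (-2.14 to -1.82, adjusted p of 0.0010 to 0.023, edgeR) and Aqp1 (-2.23 to -1.74, 0.00053 to 0.017) were called without WT-Veh 1, WT-Veh 2 or ob/ob-Rosi 2, Gpihbp1 without WT-Veh 1 (-1.53, 0.0075) or WT-Veh 2 (-1.55, 0.039), and Cd300lg without WT-Veh 1 (-1.01, 0.048).

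Outside the endothelium, 22 of 219 pairs of class and gene were called. The counts were 8, 3 and 2 of 37 pairs in eWAT for ob/ob, Rosi and ob/ob-Rosi against WT-Veh, beside 3.7%, 3.26% and 0.0432% of all genes over the same classes. In eWAT LAM-like cells, and in iWAT LAM-like and NPVM-like cells, only 1 ob/ob-Veh library held 20 or more cells, so the ob/ob and Rosi tests there rest on that library, and none of those was called. In iWAT the counts were 2, 7 and 0 of 36, beside 1.63%, 3.27% and 0.0131%. For the last of these 16 pairs had an unadjusted p under 0.05, beside 2003 of 53257 over all genes, and DESeq2 called 2. Of the 22, only 6 concerned levels above those of NKT-like cells in every library of the higher group and the other 16 did not, and the part of free RNA in those 16 was not tested. Lpl in eWAT non-perivascular macrophages (NPVM-like cells) was 932 and 1241 CPM in libraries labelled WT-Veh, 177 and 473 in ob/ob-Veh, and 1349 and 894 in ob/ob-Rosi. Both ob/ob-Veh libraries lay below the other 4. Lpl in these cells fell in the ob/ob comparison (-1.93 ± 0.37, adjusted p = 0.010, edgeR) and rose under Rosi (1.96 ± 0.37, adjusted p = 0.0058, edgeR). In NKT-like cells Lpl stood at 552 to 709 CPM in WT-Veh, 166 to 275 in ob/ob-Veh and 575 to 822 in ob/ob-Rosi, the same order, and the part of free RNA in these calls was not tested. Both calls were lost without ob/ob-Veh 1 (-1.41, adjusted p = 0.27, and 1.45, adjusted p = 0.19, edgeR) and in cells thinned to 700 UMIs (-1.49, 0.21, and 1.79, 0.056). Cd300lg in preadipocyte-like cells fell in the ob/ob comparison in eWAT (-2.37 ± 0.62, adjusted p = 0.044, edgeR) and in iWAT (-4.35 ± 0.50, adjusted p = 0.0090, edgeR), and rose under Rosi in iWAT (3.20 ± 0.49, adjusted p = 0.028, edgeR). In iWAT NKT-like cells Cd300lg had the same order of groups, and the part of free RNA in these calls was not tested. The eWAT call was lost without WT-Veh 2 (-1.23, adjusted p = 0.34, edgeR) or ob/ob-Veh 1 (-1.88, 0.24), the iWAT ob/ob call without ob/ob-Veh 1 (-3.83, 0.24) or ob/ob-Veh 2 (-5.37, 0.11), and the iWAT Rosi call without ob/ob-Veh 1 (2.70, 0.44), ob/ob-Veh 2 (4.23, 0.14) or ob/ob-Rosi 2 (2.78, 0.080). Mgll in eWAT LAM-like cells was lower in ob/ob-Rosi, at 20.6 and 26.8 CPM, than in WT-Veh, at 46.7 and 80.9 (-1.33 ± 0.29, adjusted p = 0.030, edgeR, in a fit of 5 libraries), a call that was lost without WT-Veh 2 (-0.94, 0.77) or ob/ob-Veh 2 (-1.33, 0.060) and with DESeq2 (-1.35, 0.27).

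Within the endothelium the 8 genes were not evenly spread, as far as subclusters of at least 20 cells per library show; this is a description of clusters and carries no test. Capillary EC-like cells, marked by Car4, Btnl9, Kdr, Rgcc, Timp4, Adgrf5 and Cd200, made up 71.7% to 95.0% of the class. In eWAT their share was 87.5% and 91.6% in WT-Veh, 79.05% and 82.9% in ob/ob-Veh, and 95.0% and 93.0% in ob/ob-Rosi. Lymphatic EC-like cells there numbered 30 and 0, 35 and 64, and 3 and 0. All 8 genes were lower in lymphatic than in capillary cells of the same library. The eWAT values of EC-like sums therefore include this difference in mix between groups. Rbp7 in capillary cells of eWAT was 5043 and 3698 CPM in libraries labelled WT-Veh, 2548 and 1619 in ob/ob-Veh, and 794 and 844 in ob/ob-Rosi. In iWAT it was 3755 and 5032, 1192 and 1194, and 978 and 541 CPM. Arterial cells of iWAT held 5697 CPM of Rbp7 in WT-Veh 2 and 2029 and 1350 in ob/ob-Rosi, whereas venous cells held 1287 in WT-Veh 1 and 324 and 141 in ob/ob-Rosi. Aqp1 had the reverse order, with 2231, 4236 and 6042 CPM in venous cells of iWAT WT-Veh 1 and ob/ob-Rosi 1 and 2, against 0 (3 UMIs would be 51.0), 103 and 319 CPM in arterial cells of iWAT WT-Veh 2 and ob/ob-Rosi 1 and 2. In eWAT, where no venous cells were named, arterial cells held 1776 CPM of Aqp1 in WT-Veh 2 and 1967 in ob/ob-Rosi 2, and 5133 and 1433 CPM of Rbp7. Aqp7 in eWAT capillary cells was 537 and 531 CPM in WT-Veh, 842 and 898 in ob/ob-Veh, and 300 and 240 in ob/ob-Rosi. In iWAT capillary cells it was 797 and 866, 1014 and 1271, and 384 and 184 CPM. Lymphatic cells, named in eWAT only, held 0, 0 and 34.0 CPM of Aqp7 and 0, 21.0 and 164 CPM of Rbp7 in the libraries with enough cells (WT-Veh 1, then ob/ob-Veh 1, then ob/ob-Veh 2), where 3 UMIs, the limit that a count of 0 allows, would be 47.7 CPM in WT-Veh 1 and 10.5 in ob/ob-Veh 1. These limits cover counting error only.

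**Figure D4:**
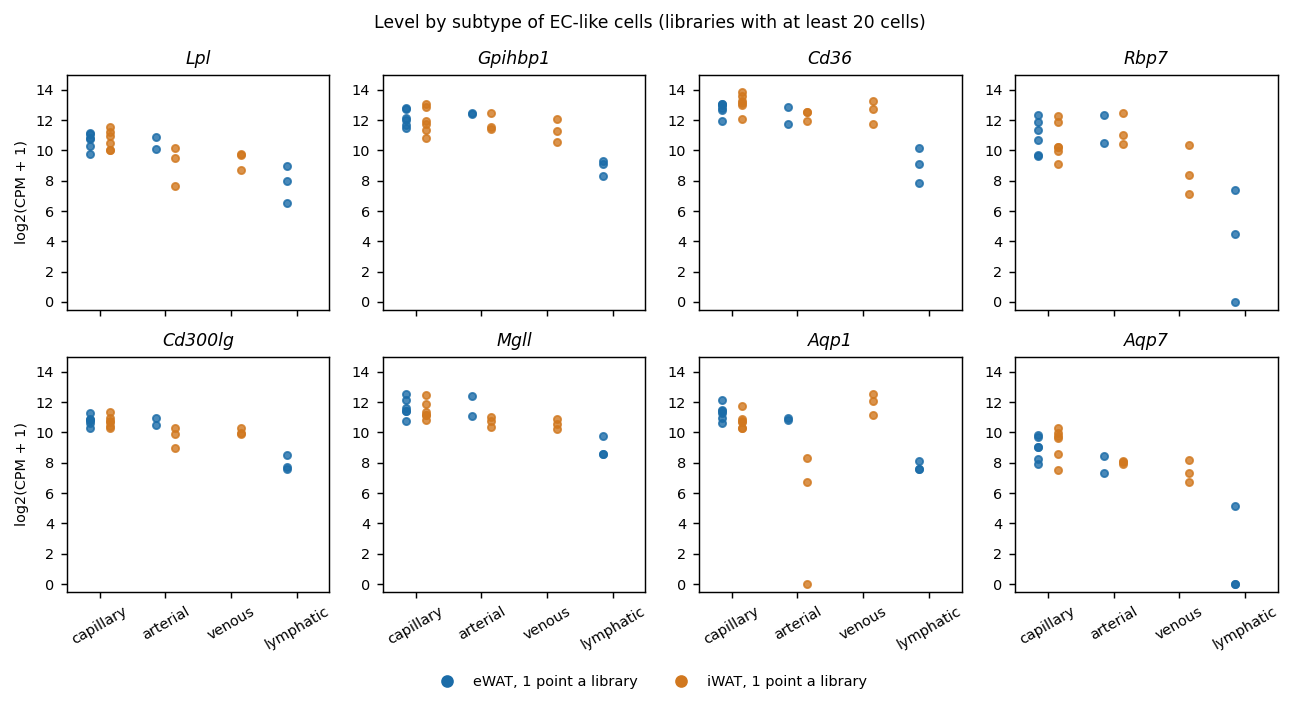
Level of each of the 8 genes (log2 of CPM + 1) in capillary, arterial, venous and lymphatic EC-like subclusters, 1 point per library with at least 20 such cells. Aqp1 reaches 6042 CPM in venous cells of iWAT and stays at or below 319 CPM in arterial cells there.

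Across all 124 sums of library and cell class, the genes whose levels followed those of the 8 most closely were mostly endothelial genes. Pearson's r over log2(CPM + 1) was computed against 12634 genes, and it mostly measures how EC-like sums differ from the rest, since the sums share libraries and classes. For Gpihbp1 the nearest gene was Cldn5 (r = 0.928), a tight junction protein. Rbp7 and Aqp7 were near each other: the gene nearest to Rbp7 was Aqp7 (r = 0.902), followed by Btnl9 (0.899), and Aqp7 stood nearest to Cyyr1 (0.917), Btnl9 (0.912) and Emcn (0.910). Mgll was nearest to Adgrf5 (r = 0.879), Cd300lg to 8430408G22Rik (0.863), Aqp1 to Egfl7 (0.885) and Cd36 to Cd93 (0.812). Lpl differed: its nearest genes were Plin2 (r = 0.684), a lipid droplet protein, and Nr1h3 (0.678), the sterol-sensing receptor LXRα, both at a lower r than for any of the other 7 genes.

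Around these 8, a list of 76 genes of lipoprotein handling, fatty acid uptake, lipolysis, retinoid handling and PPAR signalling was read in the same fits, of which 60 could be tested in eWAT and 65 in iWAT. In eWAT 2 rose and 4 fell in the ob/ob comparison, 1 rose and 5 fell under Rosi, and 0 rose and 2 fell in ob/ob-Rosi against WT-Veh, beside 1.42%, 2.32% and 0.125% of all genes. In iWAT these counts were 1 and 6, 2 and 4, and 0 and 4, beside 4.96%, 4.44% and 1.57%. The median changes of the list were -0.07, -0.11 and -0.27 in eWAT and -0.07, -0.20 and -0.40 in iWAT, and those of all genes tested lay between -0.06 and 0.02. Fabp5, a fatty acid chaperone of capillary endothelium, was called in 5 of the 6 comparisons. It stood at 4257 and 4281 CPM in eWAT WT-Veh, 671 and 615 in ob/ob-Veh, and 1423 and 1198 in ob/ob-Rosi. These groups did not overlap, but genes of this list were named only for calls whose groups lay apart. Fabp5 fell in the ob/ob comparison (-2.84 ± 0.26, adjusted p = 0.00050, edgeR), rose under Rosi (1.11 ± 0.25, adjusted p = 0.042, edgeR) and remained below WT-Veh (-1.73, adjusted p = 0.034, edgeR). In iWAT it was 3543 and 4883, 453 and 407, and 1999 and 1082 CPM, with an ob/ob change of -3.53 ± 0.42 (adjusted p = 0.0014, edgeR) and a Rosi change of 2.07 ± 0.40 (adjusted p = 0.022, edgeR). Cd36 and Gpihbp1 had no call in either comparison. An eWAT capillary cluster had Fabp5, Ccl8 and Lgals3 among its leading genes. It held 204 and 116 cells of WT-Veh, 0 and 2 of ob/ob-Veh, and 225 and 20 of ob/ob-Rosi. Ccl8 was also a leading gene of an eWAT PVM-like cluster, and Lgals3 of the eWAT LAM-like cluster. The part of macrophage RNA in the values of Fabp5 and of the genes below was not tested. Of the Fabp5 calls, the eWAT ob/ob call stayed without each library in turn and the iWAT ob/ob call was lost without ob/ob-Veh 2 (-3.50, adjusted p = 0.056, edgeR). The eWAT Rosi call was lost without each of the 6 libraries in turn (1.01 to 1.21, adjusted p of 0.059 to 0.24), in capillary EC-like cells alone (0.73, 0.21) and without lymphatic EC-like cells (0.74, 0.20), and the iWAT Rosi call without ob/ob-Veh 1 (2.14, 0.20), ob/ob-Veh 2 (2.04, 0.16) or ob/ob-Rosi 1 (1.56, 0.060). The eWAT call of ob/ob-Rosi against WT-Veh was lost without WT-Veh 1 (-1.72, 0.11), WT-Veh 2 (-1.72, 0.084), ob/ob-Rosi 1 (-1.84, 0.13) or ob/ob-Rosi 2 (-1.64, 0.13).

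Angptl4, a secreted inhibitor of LPL, was 1585 and 2199 CPM in eWAT libraries labelled WT-Veh and 595 and 504 in ob/ob-Veh (-1.89 ± 0.40, adjusted p = 0.044, edgeR). In iWAT it was 1806 and 2541, 371 and 289, and 302 and 778 CPM, lower in ob/ob-Veh (-2.97 ± 0.46, adjusted p = 0.0046, edgeR) and in ob/ob-Rosi (-2.02, adjusted p = 0.040, edgeR) than in WT-Veh. Its groups did not overlap in these comparisons, which was a condition for naming a called gene of this list. Pdk4, a kinase that shifts cells from glucose to fatty acid use, fell under Rosi from 21.3 and 22.1 to 3.19 and 3.82 CPM in eWAT (-2.46 ± 0.43, adjusted p = 0.014, edgeR). In iWAT it fell from 46.9 and 23.4 to 6.26 and 2.54 CPM (-2.47, adjusted p = 0.022, edgeR). Against WT-Veh, ob/ob-Rosi was lower by more, with a Pdk4 change of -3.69 in eWAT (adjusted p = 0.017, edgeR) and -4.15 in iWAT (adjusted p = 0.0025, edgeR), and Pdk4 also fell in the iWAT ob/ob comparison (-1.68, adjusted p = 0.049).

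Lipg, the endothelial lipase, stood at 104 and 50.5 CPM in iWAT WT-Veh, 66.5 and 26.0 in ob/ob-Veh, and 6.48 and 3.47 in ob/ob-Rosi. It fell under Rosi (-2.67, adjusted p = 0.023, edgeR) and was lower in ob/ob-Rosi than in WT-Veh (-3.86, adjusted p = 0.0036). In eWAT Lipg was 52.6 and 32.05 CPM in WT-Veh, 18.5 and 5.73 in ob/ob-Veh, and 5.32 and 3.39 in ob/ob-Rosi. Neither eWAT change was called (-1.31, adjusted p = 0.36, under Rosi and -3.30, adjusted p = 0.080, against WT-Veh, edgeR). Lipe, the hormone-sensitive lipase, fell under Rosi in iWAT (-1.06, adjusted p = 0.048, edgeR), while Tcf15, a transcription factor of capillary endothelium, rose (1.67, adjusted p = 0.022). Of the lipolysis genes, Pnpla2, the first triglyceride lipase, fell in the iWAT ob/ob comparison (-2.83, adjusted p = 0.014, edgeR). Plin2, which coats lipid droplets, fell in the ob/ob comparison in eWAT (-1.61, adjusted p = 0.040, edgeR) and iWAT (-2.20, adjusted p = 0.0058), and in iWAT ob/ob-Rosi was also below WT-Veh (-1.82, adjusted p = 0.023). Lipa, the lysosomal acid lipase, fell in both depots (-1.73, adjusted p = 0.011 in eWAT, and -1.36, adjusted p = 0.028 in iWAT, edgeR). Cav1, which encodes a caveolar coat protein, rose in eWAT ob/ob-Veh (1.35, adjusted p = 0.043, edgeR). The other depot gave no call, with ob/ob changes of 0.93 for Cav1 in iWAT (adjusted p = 0.13, edgeR) and -2.26 for Pnpla2 in eWAT (0.092). Under Rosi the eWAT changes were 0.11 for Lipe (adjusted p = 0.89, edgeR) and 0.55 for Tcf15 (0.49). A call in a single depot does not show a difference between depots. Pcsk6, a convertase of extracellular proteins, fell under Rosi in eWAT from 134 and 52.0 to 4.26 and 0.849 CPM (-5.43 ± 1.11, adjusted p = 0.030, edgeR). In iWAT Pcsk6 rose in the ob/ob comparison (2.22, adjusted p = 0.042, edgeR) and fell under Rosi (-2.24, adjusted p = 0.034). Pcsk6 was also a leading gene of the eWAT progenitor-like cluster, the APC markers in iWAT EC-like cells moved the same way, and their part in these values was not tested. Rbp4, the plasma retinol carrier that adipocytes also make, stood at 2.10 and 2.73 CPM in eWAT WT-Veh, 24.95 and 29.5 in ob/ob-Veh, and 3.19 and 1.27 in ob/ob-Rosi, rising in the ob/ob comparison (3.27, adjusted p = 0.019, edgeR) and falling under Rosi (-3.71, adjusted p = 0.0064). The low libraries of Pcsk6 and Rbp4, and the eWAT ob/ob-Rosi libraries of Pdk4, hold few UMIs, so the fitted size of these changes depends on few counts.

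Of the 29 calls of these 12 genes, 3 stayed without each library in turn: the eWAT ob/ob call of Fabp5 and the iWAT calls of Lipg and Pdk4 in ob/ob-Rosi against WT-Veh. In the iWAT ob/ob comparison the calls were lost without ob/ob-Veh 1 or without ob/ob-Veh 2 for Plin2 (-2.13, adjusted p = 0.12, and -2.35, adjusted p = 0.12, edgeR), Pdk4 (-2.05, 0.16, and -1.1, 0.42), Pnpla2 (-2.51, 0.22, and -3.41, 0.13), Angptl4 (-3.14, 0.090, and -2.83, 0.12), Lipa (-1.53, 0.17, and -1.22, 0.22) and Pcsk6 (2.07, 0.23, and 2.41, 0.23), and for Pcsk6 also without WT-Veh 2 (1.59, 0.18). In the iWAT Rosi comparison they were lost without ob/ob-Veh 1 or without ob/ob-Veh 2 for Tcf15 (1.39, adjusted p = 0.24, and 2.31, adjusted p = 0.10, edgeR), Pdk4 (-2.10, 0.21, and -3.04, 0.13), Lipe (-0.91, 0.32, and -1.17, 0.18), Pcsk6 (-2.09, 0.25, and -2.43, 0.22) and Lipg (-2.10, 0.23, and -3.40, 0.10). The same Rosi calls were lost without ob/ob-Rosi 2 for Tcf15 (1.46, adjusted p = 0.091, edgeR), Pdk4 (-2.05, 0.064), Lipe (-0.98, 0.32), Pcsk6 (-2.73, 0.071) and Lipg (-2.35, 0.063), and without ob/ob-Rosi 1 for Lipe (-1.15, 0.11) and Pcsk6 (-1.82, 0.11). The iWAT calls against WT-Veh were lost without ob/ob-Veh 1, ob/ob-Veh 2 or ob/ob-Rosi 1 for Plin2 (-1.82, -1.82 and -1.56, adjusted p of 0.084 to 0.18, edgeR) and Angptl4 (-2.01, -2.01 and -1.49, adjusted p of 0.12 to 0.23).

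In eWAT the ob/ob calls of Plin2 (-1.89 to -1.38, adjusted p of 0.061 to 0.21, edgeR), Cav1 (1.06 to 1.71, adjusted p of 0.083 to 0.25) and Angptl4 (-2.11 to -1.64, adjusted p of 0.053 to 0.17) were lost without any of WT-Veh 1, WT-Veh 2, ob/ob-Veh 1 or ob/ob-Veh 2. Those of Lipa (-1.85 to -1.60, adjusted p of 0.068 to 0.12, edgeR) and Rbp4 (3.16 to 3.54, adjusted p of 0.087 to 0.18) were lost without WT-Veh 2, ob/ob-Veh 1 or ob/ob-Veh 2. The eWAT Rosi call was lost for Pdk4 without ob/ob-Veh 1 (-2.46, adjusted p = 0.061, edgeR) or ob/ob-Rosi 2 (-2.67, 0.19), and for Rbp4 without ob/ob-Veh 2 (-3.57, 0.064) or ob/ob-Rosi 2 (-3.01, 0.16). For Pcsk6 it was lost without ob/ob-Veh 1 (-4.56, adjusted p = 0.082, edgeR), ob/ob-Rosi 1 (-6.50, 0.057) or ob/ob-Rosi 2 (-4.33, 0.42) and with DESeq2 (-5.20, 0.080). The eWAT Pdk4 call against WT-Veh was lost without ob/ob-Rosi 1 (-3.61, 0.082) or ob/ob-Rosi 2 (-3.91, 0.12). No called value of these genes changed sign under any alternative.

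Other choices of cells also ended calls of the 12 genes. Of the 17 iWAT calls, 17 were lost in all vascular clusters, 12 in cells gated singly, 8 in cells thinned to 700 UMIs and 6 in capillary EC-like cells alone. For Lipe the Rosi change in these was -1.02 (adjusted p = 0.20, edgeR), -1.20 (0.19), -0.81 (0.22) and -1.08 (0.062). The Rosi calls of Tcf15 (1.31 to 1.62, adjusted p of 0.051 to 0.17, edgeR), Pcsk6 (-2.34 to -1.99, adjusted p of 0.053 to 0.21) and Lipg (-3.10 to -2.79, adjusted p from just over 0.05 to 0.14) were lost in the same settings. Of the eWAT calls, 1 of 12 was lost in all vascular clusters, 3 of 12 in cells gated singly, 0 of 8 in thinned cells and 1 of 11 in capillary cells.

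**Figure D5:**
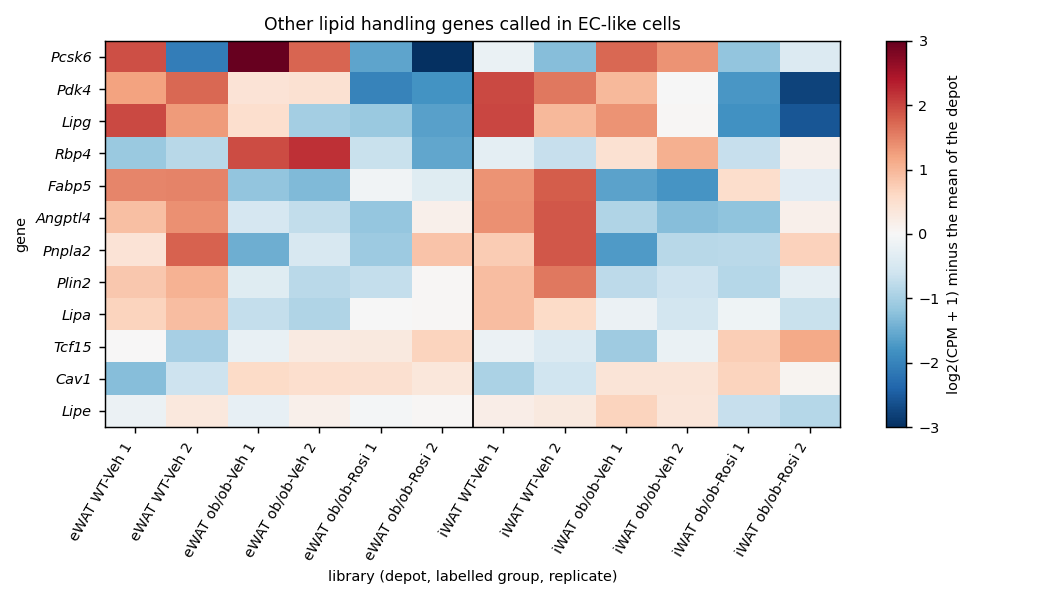
Heat map of log2(CPM + 1) in EC-like cells minus the mean of the depot for the 12 named genes of the lipid list, with 1 column per library and colours that saturate at the ends of the bar. Fabp5 stands at 4257 and 4281 CPM in eWAT WT-Veh, 671 and 615 CPM in ob/ob-Veh and between them in ob/ob-Rosi.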

How the data were processed

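Single cells of the SVF were profiled by 10x 3′ sequencing in 12 libraries, 2 per group and depot. The authors deposited raw UMI counts per gene and cell barcode, made with Cell Ranger 3.0.2 on mm10 after bcl2fastq 2.19.1.403, with no normalization. The annotation release is not given in the sources used here. Cells with 700 to 22000 UMIs, 200 to 6000 genes and under 25% mitochondrial counts were kept and clustered per depot in scanpy 1.11.5 with 25 principal components, 20 neighbours and resolution 1, without the 8 genes, and vascular clusters were clustered again with 15 components. The rules that name clusters were adjusted after the clusters were seen, and vascular clusters in which markers of another class passed the score set for it were left unnamed or mixed. Clusters led by adipocyte, immunoglobulin or progenitor genes that stayed under that score were kept as EC-like. Mural-like cells could not be separated and were not tested. The 8 genes, the pathway list and the tests were chosen with earlier results of these data known.

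Counts were summed per library and class over at least 20 cells and tested with edgeR 4.0.16 (quasi-likelihood, TMM, filterByExpr, R 4.3.3), 1 fit per depot and class with 3 residual degrees of freedom, or 2 where 1 library held too few cells, and with DESeq2 1.42.0 as an alternative. Benjamini-Hochberg adjustment ran over all genes tested. Calls needed an adjusted p no higher than 0.05 and a change of 1.1-fold or more. Fold changes are model values, and SE is the absolute log2 change over the square root of F. CPM is per 1000000 UMIs of the sum, and levels were compared on log2(CPM + 1). Differences between classes were tested with the library as a block. Of the pathway list, up to 12 genes were named: those called, with a mean of at least 10 CPM and groups apart, by size of change. Doublets were kept, and removing the Scrublet calls was an alternative. The libraries share only a replicate number, with nothing that pairs mice across groups. The p-values therefore rest on the spread between the 2 libraries of a group, shared over the groups of a fit and across genes. The edgeR and DESeq2 fits of the ob/ob change were tried on simulated counts, and the clustering, class naming, summing and sign-flip test were not.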

Additional observations from a re-analysis of the deposited data

Results flagged for a closer look

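For 4 of the 8 genes the EC-like and preadipocyte-like cells differed in a group effect by the edgeR interaction test, with each value given as the EC-like log2 change minus the preadipocyte-like one. In eWAT these values were 1.92 for Cd36 and 1.57 for Cd300lg in the ob/ob comparison, and -1.79 for Rbp7 and -1.65 for Cd36 in the Rosi comparison. In iWAT they were 3.00 for Aqp7, 1.91 for Cd36 and 3.28 for Cd300lg in the ob/ob comparison, and -2.78 for Cd300lg in the Rosi comparison. Over all genes 3.4% and 4.35% were called in the eWAT ob/ob and Rosi comparisons, and 2.97% and 2.16% in the iWAT ones. Of the values listed, all but that of Cd36 in the eWAT ob/ob comparison lost their call when some single library was left out. The preadipocyte-like levels of Rbp7 and Cd36 in eWAT were below those of NKT-like cells in each library, and that of Aqp7 in iWAT in 4 of 6 libraries. Cd300lg had the same order of groups in iWAT NKT-like cells as in iWAT preadipocyte-like cells. The eWAT Rbp7 difference was not called in cells thinned to 700 UMIs (-1.35, adjusted p = 0.45, edgeR), nor was the iWAT Aqp7 difference (1.69, adjusted p = 0.53), and the eWAT Cd300lg difference was not called by DESeq2 (1.57, adjusted p = 0.13).

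In 1737 vascular cells of iWAT WT-Veh 1 that were left out of the EC-like class because their clusters were unnamed or mixed, Gpihbp1 stood at 1420 CPM, against 3246 CPM in the EC-like cells and 103 CPM in the NKT-like cells of that library. The leukocyte gene Ptprc stood at 314 CPM in the cells left out and 60.02 CPM in the EC-like cells. Of the 1313 cells of that library that passed a gate on EC markers cell by cell, 16.1% lay in the EC-like class, against 69.9% to 96.7% in the other iWAT libraries, so most gated cells of WT-Veh 1 were left out.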

How the results depend on the processing

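Of 1904 values of the 8 genes under alternatives, over 136 results, 0 called values changed sign, 123 values had the other sign and were called in neither setting, 103 gained a call and 43 lost one. Of 529 values of the 35 other named results, 382 kept their call, 147 lost it and 0 reversed. Of the 8 genes 1 was called in each EC-like comparison. DESeq2 called 2, 2 and 2 in eWAT (in the order ob/ob, Rosi, ob/ob-Rosi against WT-Veh), and 4, 3 and 3 in iWAT, no filter on low counts 3, 3 and 2, and 4, 3 and 2. Library size alone and cells thinned to 700 UMIs each gave 2 in iWAT ob/ob-Rosi against WT-Veh. Capillary cells alone, and removal of lymphatic cells, each gave 0 and 2 in the eWAT ob/ob and Rosi comparisons. All vascular clusters gave 2 in the eWAT Rosi comparison, and they and cells gated singly gave 0 in all 3 iWAT comparisons. Removing lymphatic cells and using all vascular clusters were chosen after seeing the data. Calls lost in all vascular clusters were those of iWAT Rbp7 (ob/ob -2.01, adjusted p = 0.13; against WT-Veh -2.20, adjusted p = 0.25, edgeR) and Aqp7 under Rosi (-1.51, adjusted p = 0.18).

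Over all genes, 137, 223 and 12 calls in eWAT and 557, 498 and 176 in iWAT became 709, 696 and 187, and 1361, 1370 and 451, with no filter, and 80 and 117 (eWAT ob/ob and Rosi) and 98, 91 and 48 (iWAT) in thinned cells. DESeq2 gave 231 in eWAT ob/ob and 68 in eWAT ob/ob-Rosi against WT-Veh. Capillary cells gave 249 and 61 in these and 229 in iWAT Rosi, and without lymphatic cells there were 250 and 52. Cells gated singly gave 303, 363 and 5, and 114, 39 and 46, and all vascular clusters 367 and 444 (eWAT ob/ob and Rosi) and 4, 3 and 0 (iWAT). In other classes, pairs called went from 8, 3 and 2 in eWAT to 14 and 14 (ob/ob and Rosi) with no filter, 8 (Rosi) and 0 (ob/ob-Rosi against WT-Veh) with DESeq2, and 0 in the last with library size alone or thinned cells. In iWAT they went from 2, 7 and 0 to 17, 15 and 9 with no filter, 10 (ob/ob) and 2 (against WT-Veh) with DESeq2, and 4 (ob/ob) in thinned cells. For differences from preadipocyte-like cells, DESeq2 called 1 gene in eWAT ob/ob, no filter 4 in eWAT Rosi and 3 in iWAT Rosi, and library size alone 2 in iWAT Rosi. For differences from PVM-like cells, no filter called 2 and 1 (eWAT) and 3 (iWAT Rosi), thinned cells 1 in eWAT ob/ob and 1 and 1 in iWAT, DESeq2 2 in iWAT Rosi and Scrublet removal 1 there. The cause of these shifts was not tested.

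With the replicate number as a block, 3, 4 and 3 of the 8 genes were called in eWAT and 4, 3 and 3 in iWAT, 815, 786 and 155 and 2141, 2398 and 584 of all genes, and 14 and 12 (eWAT ob/ob and Rosi) and 11 and 4 (iWAT ob/ob and against WT-Veh) pairs of other classes. Gpihbp1 was called with the block in the ob/ob comparison of eWAT (adjusted p = 0.0044, edgeR) and iWAT (adjusted p = 0.00095) and in both Rosi comparisons (0.0072 and 0.00099). The libraries share only a number, and the correlation of same-numbered deviations over genes was 0.272 to 0.321 in eWAT and 0.122 to 0.433 in iWAT.

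Leaving out each library in turn gave 0 to 2, 0 to 1 and 0 to 1 of the 8 genes in eWAT and 0 to 4, 0 to 3 and 0 to 2 in iWAT. All genes called ranged over 30 to 223, 27 to 296 and 0 to 20 in eWAT and 38 to 1926, 4 to 1646 and 43 to 420 in iWAT, where each highest count came without WT-Veh 1 and the lowest ob/ob and Rosi counts without ob/ob-Veh 2. Pairs of other classes ranged over 3 to 9, 0 to 6 and 0 to 3, and 0 to 13, 0 to 13 and 0 to 4. Differences from preadipocyte-like cells ranged over 1 to 4 and 1 to 4 in eWAT and 0 to 3 and 0 to 4 in iWAT, and from PVM-like cells over 0 to 1 and 0 to 0, and 0 to 2 and 0 to 4. Depot comparisons and neighbouring classes stayed at 0 to 0, and for neighbouring classes no other count was possible.

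Groups of 2 libraries limit every test, and leaving 1 out assumes that the lone library varies like the others. Lpl in EC-like cells is limited by free RNA, and the share of EC-like cells with an Aqp7 UMI by depth. The part of adipocyte RNA in the summed Aqp7 levels was not tested.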

Other observations

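Vascular cells that were left out of the EC-like class, because their clusters carried genes of another class, also held the 8 genes, and no test was run on them. In the 96 to 361 such cells per eWAT library, Rbp7 stood at 2587 and 1956 CPM in WT-Veh, 1245 and 1041 in ob/ob-Veh, and 385 and 543 in ob/ob-Rosi, the same order of groups as in EC-like cells. Aqp7 in the same cells was 316 and 302 CPM in WT-Veh, 414 and 574 in ob/ob-Veh, and 133 and 143 in ob/ob-Rosi, again in the order of the EC-like cells. Lpl was higher in the cells left out than in EC-like cells in eWAT WT-Veh 1 (1704 against 805 CPM) and ob/ob-Rosi 1 (2106 against 1240 CPM) and lower in ob/ob-Rosi 2 (1843 against 2251 CPM).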
